A study of Mus musculus with 18 samples.

Results

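Sorted Msx1-positive cells of Dlx2-induced mouse embryoid bodies were compared between day 16 and day 8 of differentiation. The libraries were taken by their labels: both day 16 and both day 8 Msx1-positive libraries, 4 of the 18 samples of the series. Every one of the 54114 gene symbols of the count table was considered, and 22294 had enough counts to be tested. The cells derive from a mouse embryonic stem (ES) cell line with a tdTomato reporter at Msx1 and an inducible Dlx2 transgene. Embryoid bodies, floating aggregates in which ES cells differentiate, were grown by the hanging drop method, given doxycycline at 1 µg/ml, and their cells were sorted for the reporter. All day 16 and day 8 libraries carry the induced transgene, and no GFP or uninduced library is labelled for these days. Effects of the transgene and of time in culture on a change between the days cannot be told apart. The labels do not say whether the line is 1 clone or whether replicates were separate cultures, so p-values measure only the spread between these libraries.

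Msx1 and Dlx2 encode homeodomain transcription factors of the first pharyngeal arch. Arch mesenchyme of neural crest origin, the ectomesenchyme, forms facial bone, cartilage, dental pulp and dentine, and the connective tissue and pericytes of the face. On the way to bone, tendon or fibrous tissue such cells are known to leave pluripotency behind, to secrete fibrillar collagens, and then to add the small proteins that organise collagen or seed mineral.

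Total counts were 62026265 and 64696124 in the day 16 libraries, against 65655287 and 107770730 in the day 8 libraries. The unit of level is CPM, counts relative to the TMM-scaled library size, which compares one gene between libraries and not different genes. Changes are log2 of day 16 over day 8 with a standard error (SE). Calls are those of edgeR's quasi-likelihood test with an adjusted p under 0.05, and "rose" and "fell" are used only of called genes. With 2 libraries against 2, the smallest exact two-sided p for a single value is 0.333, so each call rests on a spread estimated across genes. Replicate libraries differed by a median of 0.15 (day 16) and 0.16 (day 8) on the log2 scale, and their log2 levels correlated across genes at 0.990 and 0.991.

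Of the tested genes 4713 rose and 5526 fell between day 8 and day 16, 21.1% and 24.8% of all tested, so 45.9% were called in either direction. Scaling by library size alone gave 3717 higher and 6999 lower genes, with a median of -0.15 over all genes in place of -0.03. With RLE size factors 5063 were higher and 5115 lower, at a median of 0.00. A stricter filter, at least 1 CPM in at least 2 libraries, left 16295 genes, of which 4683 were higher and 4874 lower. The excess of falls among all calls thus depends on the scaling and on the filter for low counts. By at least 2-fold, 1549 genes rose (6.95%) and 2528 fell (11.3%), against 1627 and 2428 with RLE size factors and 1335 and 1872 with the stricter filter. At least 16-fold 84 rose and 263 fell, counts that include genes with few or no counts in 1 group. Among genes ranked for naming, with at least 5 CPM in the higher group, only Mt3, Foxn4 and Slc18a3 fell by 16-fold or more. The next fall there was -3.96 (Pla2g10), while the 15 largest rises were all 4.43 or more. Among protein-coding genes 26.4% rose and 29.2% fell. Among lincRNAs, long noncoding RNAs between genes, 7.46% rose and 23.3% fell.

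**Figure D1:**
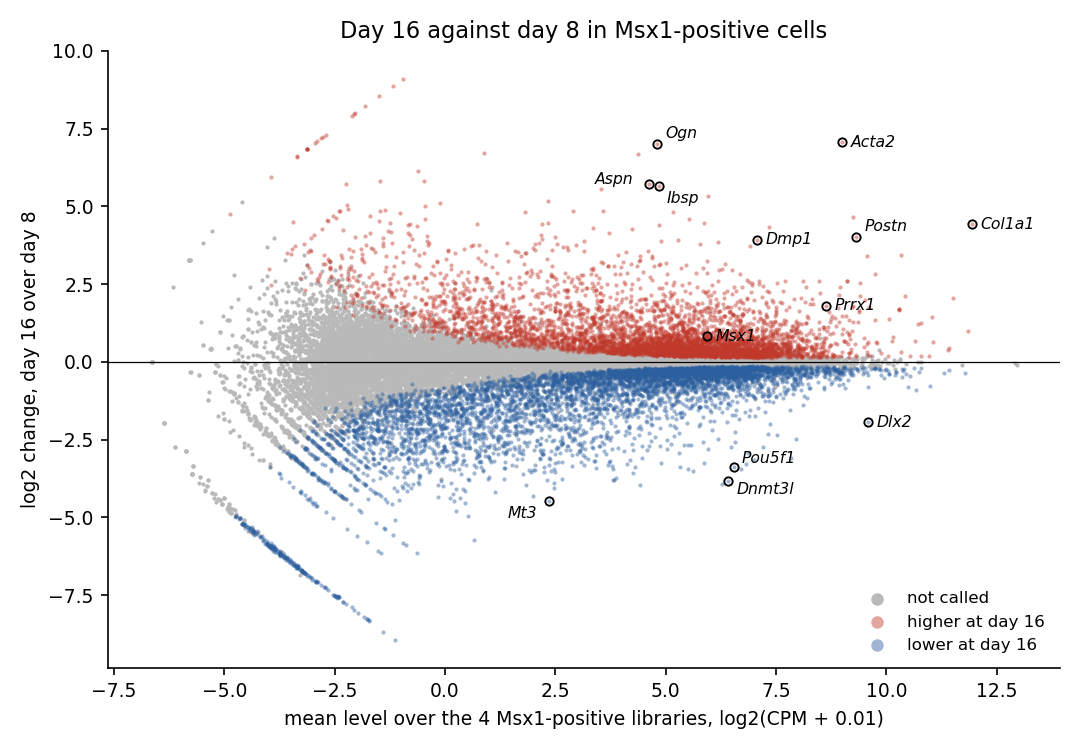
Log2 change of each of the 22294 tested genes (vertical axis) against its mean level over the 4 Msx1-positive libraries (horizontal axis, log2 of CPM with 0.01 added). Red points rose, blue points fell and grey points were not called; Acta2, Ogn and Actg2 stand near the top of the well-measured genes, and the diagonal streaks at the left are genes with few or no counts in 1 group.

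Msx1, on which the cells were sorted (chromosome 5, 37820485 to 37824583, GRCm38), was at 74.6 and 82.7 CPM at day 16, against 41.5 and 47.4 CPM at day 8. It rose by 0.82 ± 0.13 (adjusted p = 0.000176), and the 2 days do not overlap, as for 71.5% of all tested genes. In the Msx1-negative fraction it lay between 0.763 and 1.92 CPM at both days. Dlx2 (chromosome 2, 71543408 to 71546754) was at 292 and 345 CPM at day 16, against 1152 and 1287 CPM at day 8, a fall of -1.94 ± 0.08 (adjusted p = 2.08e-10). Its counts do not separate the transgene from the endogenous gene. Msx1 was thus higher and total Dlx2 lower in the same libraries. Among Dlx and Msx relatives, named here after their values were seen, Dlx1 fell by -0.55 and Dlx3 by -0.83, and Msx2 fell by -0.23. Dlx5 changed by -0.23 (adjusted p = 0.142) and Dlx6 by 0.14 (adjusted p = 0.521), neither called. Tmpo, the gene of LAP2 proteins including LAP2α, was at 237 and 231 CPM at day 16, against 221 and 219 CPM at day 8, and was not called (0.09 ± 0.05, adjusted p = 0.192). Its lamin A partner Lmna rose by 1.18 ± 0.07, with 270 and 270 CPM at day 16, against 113 and 126 CPM at day 8. Among 19 genes for lamina proteins and partners of LAP2, 6 rose and 5 fell, with a median of 0.09, shares near the 21.1% and 24.8% of all tested genes. Without day 16 replicate 2, or with RLE scaling, 3 of them fell.

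Transcription factors of arch mesenchyme rose in 28 of 41 members and fell in 6, with a median of 0.96 against -0.03 over all genes. Prrx1, a homeobox gene of limb and facial mesenchyme (chromosome 1, 163245119 to 163313710), was at 618 and 620 CPM at day 16, against 177 and 179 CPM at day 8 (1.80 ± 0.06, adjusted p = 2.11e-11). Twist1, which maintains mesenchyme and skull sutures, was at 134 and 131 CPM at day 16, against 39.3 and 47.9 CPM at day 8 (1.6 ± 0.11, adjusted p = 4.66e-08). For both genes each day 16 library stood above each day 8 library; days apart in either direction were seen for 71.5% of all tested genes. Alx4, a factor of frontonasal mesenchyme, was at 29.3 and 25.5 CPM at day 16, against 3.79 and 3.97 CPM at day 8. Foxf2, a hedgehog-responsive factor of the palate, rose by 3.07 ± 0.21. Pdgfra, the platelet-derived growth factor receptor of crest mesenchyme, rose by 0.68 ± 0.06. Foxd1 fell by -1.29 ± 0.19. Summed over the list the level was 2574 and 2702 CPM at day 16, against 2440 and 2687 CPM at day 8, ranges that overlap; the sum holds Dlx2, which fell.

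Neural crest specifiers, which act earlier, rose in 8 of 21 members and fell in 11 (median -0.31). Tfap2b rose by 3.94 ± 0.27, at 8.83 and 8.35 CPM at day 16, against 0.722 and 0.424 CPM at day 8, and Pax3 rose by 1.85 ± 0.31. Sox10, which marks migrating crest and its glia, fell by -1.73 ± 0.41 to 0.656 and 0.363 CPM at day 16, against 1.36 and 2.01 CPM at day 8. The plate border gene Zic5 fell by -1.91 ± 0.08. Foxd3 had 20 counts in the day 8 libraries and 0 at day 16, at least 4.76-fold lower against a floor of 3 counts per group. Sox9, a factor of crest and cartilage, was at 47.3 and 50.1 CPM at day 16, against 51.7 and 63.5 CPM at day 8. Its fall of -0.24 ± 0.09 (adjusted p = 0.0443) was not called with DESeq2 (-0.21, adjusted p = 0.128) or RLE size factors (-0.21, adjusted p = 0.0901). Nor was it called with the filter of 1 CPM in at least 2 libraries (adjusted p = 0.0503) or with ES libraries in the fit (adjusted p = 0.0517). The call was also lost without day 8 replicate 2 (-0.09) or without day 16 replicate 1 or 2 (-0.20 and -0.29).

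**Figure D2:**
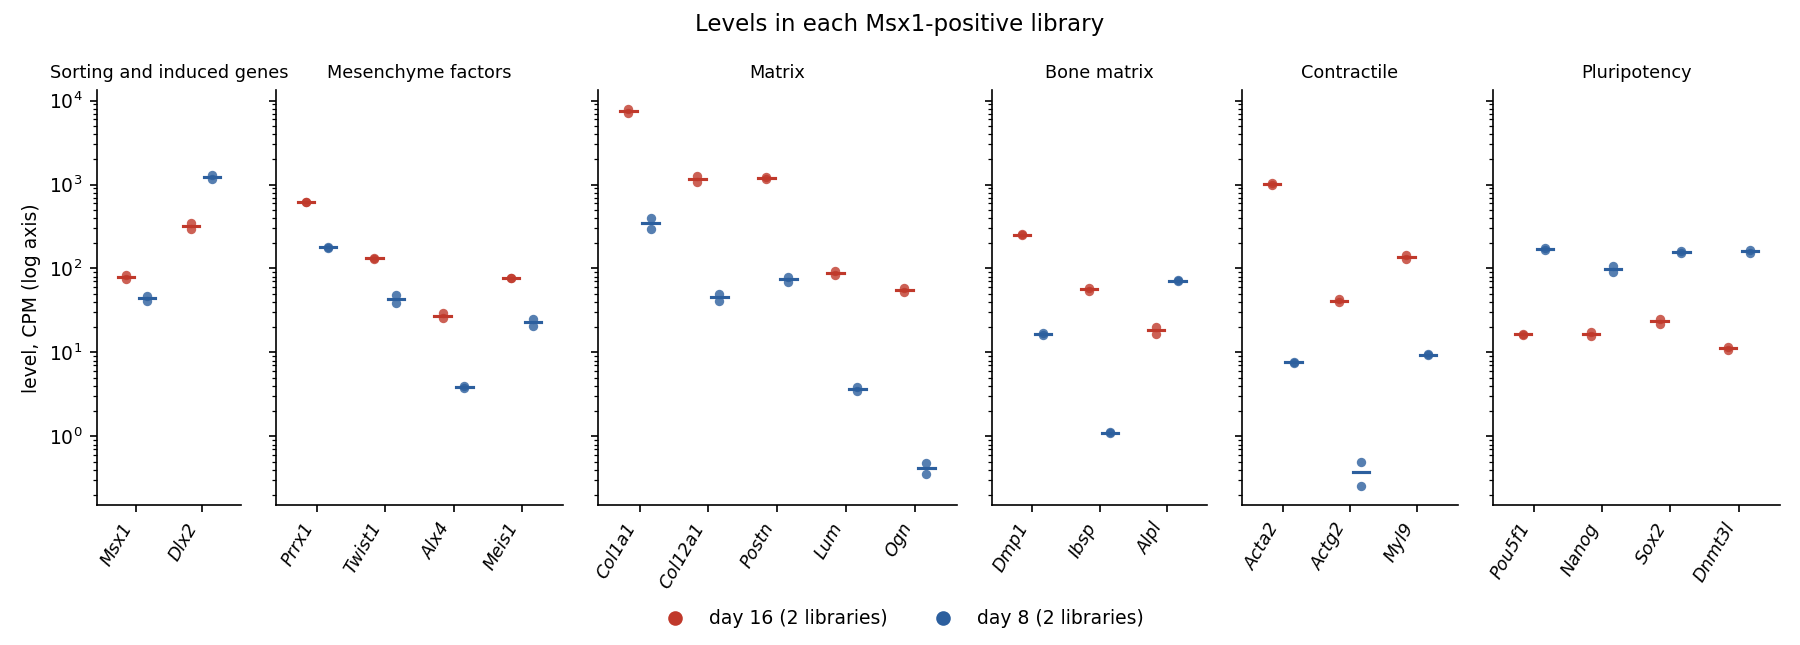
Level of 21 genes in each Msx1-positive library (CPM, log axis); points are libraries, bars the mean of 2, with day 16 left of day 8 for each gene. Matrix, contractile and mesenchyme genes stand higher at day 16, Alpl, Dlx2 and the pluripotency genes lower. No gene shown has overlapping days, but neither do 71.5% of all tested genes, and genes named by rank had to meet this.

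Every member of the collagen matrix lists rose. Of collagens counted in other lists, Col9a2, Col9a3 and Col10a1 of cartilage fell, and Col4a4 of basement membrane was not called. All 28 genes of fibrillar, beaded and elastic matrix were called higher (median 1.90), and so were all 23 genes for collagen modification, processing and cross-linking (median 0.98). Col1a1, the main chain of type I collagen of bone and dermis (chromosome 11, 94936224 to 94953042), was at 7855 and 7062 CPM at day 16, against 294 and 400 CPM at day 8 (4.43 ± 0.16, adjusted p = 1.29e-07). Its partner chain Col1a2 rose by 2.06 ± 0.07, at 4911 and 4492 CPM at day 16, against 1072 and 1185 CPM at day 8. Col12a1, a collagen that decorates type I fibrils (chromosome 9, 79598991 to 79718831), was at 1247 and 1077 CPM at day 16, against 40.9 and 50.1 CPM at day 8 (4.67 ± 0.14). Lox, the oxidase that cross-links collagen and elastin, was at 302 and 316 CPM at day 16, against 15.0 and 15.7 CPM at day 8 (4.33 ± 0.08, adjusted p = 5.82e-14). P4ha3, a prolyl hydroxylase subunit, and Adamts2, which trims procollagen, rose by 3.05 ± 0.14 and 3.14 ± 0.10. Summed over the 28 matrix genes the level was 28363 and 25561 CPM at day 16, against 4824 and 5527 CPM at day 8.

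Fibroblast, tendon and ligament genes rose in 22 of 27 tested members and fell in 1 (median 2.14). Ogn, which encodes the small leucine-rich proteoglycan osteoglycin (chromosome 13, 49608046 to 49624501), was at 53 and 57.9 CPM at day 16, against 0.354 and 0.486 CPM at day 8. That is a log2 change of 7.0 ± 0.23 (adjusted p = 6.00e-11), second only to Acta2 among genes with at least 5 CPM in the higher group that were ranked for naming. Aspn, whose product asporin binds collagen in periodontal ligament, was at 45.2 and 52.0 CPM at day 16, against 1.05 and 0.813 CPM at day 8 (5.73 ± 0.15). Lum and Dcn, the collagen-spacing proteoglycans lumican and decorin, rose by 4.60 ± 0.10 and 4.47 ± 0.11. Postn, the periostin gene of periodontal ligament and periosteum, was at 1175 and 1229 CPM at day 16, against 78.5 and 70.0 CPM at day 8. Dpt, which encodes dermatopontin, and Tnmd, the tenomodulin gene of mature tendon, had 26 and 55 counts at day 16 and 0 at day 8, at least 12.8-fold and 27.1-fold higher against the floor of 3 counts. Pcolce2, a procollagen protease enhancer, was the member that fell (-2.78 ± 0.08), with 8.04 and 8.5 CPM at day 16, against 57.5 and 56.5 CPM at day 8. Scx, the tendon transcription factor, was not called (0.18 ± 0.15, adjusted p = 0.38).

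The proteoglycan genes lie side by side, a point looked up after their values were seen. On chromosome 13 Ecm2, Aspn, Omd and Ogn stand within positions 49504810 to 49624501 of the plus strand (GENCODE vM21, GRCm38), and all 4 rose, Ecm2 by 1.57 ± 0.38 and Omd by 6.73 ± 1.02. Omd, osteomodulin, was at 3.07 and 4.23 CPM at day 16, against 0.0283 and 0.0354 CPM at day 8. Cenpp, a centromere protein gene on the opposite strand across the same stretch, fell by -0.45 ± 0.13. The library kit does not mark strand, so reads of Cenpp and Aspn where they overlap cannot be told apart. On chromosome 10 the neighbours Dcn, Lum and Kera rose, Kera by 4.14 ± 0.73 at 0.738 and 1.33 CPM at day 16, against 0.0849 and 0.0354 CPM at day 8, and Epyc beside them had too few counts to test.

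Genes of bone cells rose in 16 of 22 tested members and fell in 2 (median 1.66). Runx2 and Sp7, the transcription factors that start the osteoblast programme, rose by 1.66 ± 0.25 and 1.12 ± 0.10. Ibsp, a bone sialoprotein that nucleates mineral (chromosome 5, 104299171 to 104311469), was at 53.8 and 58.6 CPM at day 16, against 1.13 and 1.09 CPM at day 8 (5.66 ± 0.19, adjusted p = 2.12e-11). Dmp1, made by osteocytes and odontoblasts to guide mineralisation (chromosome 5, 104202613 to 104214102), was at 259 and 248 CPM at day 16, against 16.3 and 17.2 CPM at day 8 (3.92 ± 0.08). Day 16 exceeded day 8 in every library for these genes. Ibsp was ranked only among genes whose days do not overlap, and 71.5% of all tested genes have days that do not overlap. The osteocalcin genes Bglap and Bglap2, near-identical copies whose reads may be shared, rose by 2.67 ± 0.48 and 2.56 ± 0.42. Alpl, tissue-nonspecific alkaline phosphatase, a classic early marker of bone and also of pluripotent cells, went the other way, at 16.6 and 20 CPM at day 16, against 71.9 and 71.7 CPM at day 8 (-1.97 ± 0.07, adjusted p = 3.76e-11). Sost and Fgf23, genes of osteocytes, were not called, at -0.36 ± 0.32 (adjusted p = 0.391) and -0.02 ± 0.74 (adjusted p = 0.989).

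Ibsp and Dmp1 belong to a run of mineral-matrix genes on chromosome 5. Between positions 104170712 and 104441050, Dspp, Dmp1, Ibsp and Spp1 rose, and Mepe was too low to test. Dspp, which encodes the main noncollagenous protein of dentine, was at 1.25 and 1.04 CPM at day 16, against 0.255 and 0.362 CPM at day 8 (1.87 ± 0.56, adjusted p = 0.0143), and Spp1, osteopontin, rose by 1.00 ± 0.08. Elsewhere on chromosome 5, between positions 87885029 and 88506049, the enamel and junctional epithelium genes did not move together. Amtn, amelotin, fell by -3.17 ± 0.17 to 3.45 and 3.92 CPM at day 16, against 35.6 and 30.6 CPM at day 8, and Odam fell by -1.76 ± 0.17. Ambn was not called (-0.09 ± 0.16, adjusted p = 0.67), and Enam rose by 3.97 ± 0.81, at 0.722 and 0.663 CPM at day 16, against 0.0283 and 0.0530 CPM at day 8.

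Of the tooth mesenchyme and dental matrix list 15 of 21 tested members rose and 3 fell (median 1.09). Inhba, the activin A subunit of tooth mesenchyme, was at 226 and 218 CPM at day 16, against 17.2 and 16.6 CPM at day 8 (3.72 ± 0.08), and the matrix protein gene Tnc was at 1586 and 1399 CPM, against 200 and 221 CPM (2.83 ± 0.09). Barx1, a homeobox gene of molar mesenchyme, and Lhx6 were not called (adjusted p = 0.312 and 0.79). Cartilage genes were mixed, with 9 of 22 tested members higher and 8 lower (median -0.16). Col11a1, a fibril collagen of cartilage and bone, was at 166 and 149 CPM at day 16, against 28.6 and 30.6 CPM at day 8 (2.41 ± 0.08). Acan, the aggrecan gene of mature cartilage, fell by -3.17 ± 0.14 to 2.59 and 2.73 CPM at day 16, against 20.7 and 27.1 CPM at day 8, and Col10a1 of hypertrophic cartilage fell by -2.16 ± 0.46.

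Smooth muscle and pericyte genes rose in 16 of 18 members and fell in none, with a median of 2.12; the 2 not called were Hhip and Rgs5 (adjusted p = 0.947 and 0.445). Acta2, smooth muscle alpha-actin (chromosome 19, 34241090 to 34255590), was at 985 and 1044 CPM at day 16, against 7.53 and 7.73 CPM at day 8. Its change of 7.05 ± 0.12 (adjusted p = 3.88e-13) was the largest among the ranked genes. Actg2, the enteric smooth muscle actin, was at 39.8 and 42.9 CPM at day 16, against 0.255 and 0.495 CPM at day 8 (6.70 ± 0.23). The actin genes share long near-identical coding stretches, so some of their reads may be assigned to the wrong copy. How far this affects Actg2 was not tested. Outside that family Lmod1, leiomodin, rose by 4.13 ± 0.18, Myl9, a myosin light chain, by 3.86 ± 0.10, and Myocd, the smooth muscle coactivator, by 1.43 ± 0.28. Over the whole list the summed level was 2233 to 2290 CPM at day 16, against 427 to 468 CPM at day 8, and no member was at 0. In bulk libraries a change in the share of cells of a type and a change in RNA per cell cannot be told apart.

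The promoters of Acta2 and Myl9 are shown because serum response factor, the partner of myocardin, is known to bind CArG boxes at contractile genes. The windows are the 250 bases before the RefSeq start (GRCm38.p6), 5′ to 3′ on the strand of the gene, with the boxes in capitals. Acta2 lies on the minus strand at chr19:34255374-34255623 and Myl9 on the plus strand at chr2:156775214-156775463.
Acta2: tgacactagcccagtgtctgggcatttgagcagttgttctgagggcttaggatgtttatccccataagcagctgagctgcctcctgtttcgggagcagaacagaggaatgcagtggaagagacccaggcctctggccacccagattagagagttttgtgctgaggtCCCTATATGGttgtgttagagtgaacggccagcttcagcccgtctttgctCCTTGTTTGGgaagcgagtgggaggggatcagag
Myl9: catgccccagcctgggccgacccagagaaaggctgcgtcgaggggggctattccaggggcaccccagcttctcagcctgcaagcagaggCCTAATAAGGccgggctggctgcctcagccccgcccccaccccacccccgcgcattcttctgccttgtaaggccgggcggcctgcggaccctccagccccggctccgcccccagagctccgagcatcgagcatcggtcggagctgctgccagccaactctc
The search was for CC, 6 bases and GG, a pattern that covers both strands, over 300 bases from 250 before to 50 after the start. Myl9 held 1 box with only A and T between the ends, 161 bases before the start. Acta2 held 2 boxes with at most 1 G or C between the ends, 84 and 34 bases before the start. Of 14149 tested genes with a window, 1.65% held a box of the strict kind and 11% one of the looser kind, which includes the strict. A match is a description of the letters, not of binding, and of the 18 smooth muscle members only 14 had a window, too few to set against these shares. Of those 14, 2 held a strict box and 3 a box of the looser kind.

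Markers of other cell types moved in several directions, and their part in the results was not tested. Endoderm genes rose in 15 of 17 tested members and fell in 2 (median 2.25): Ttr and Apoa1, plasma carriers of liver and yolk sac, rose by 4.45 ± 0.22 and 3.25 ± 0.24, while Amn and Cubn, the endocytic receptor pair of visceral endoderm, fell by -0.74 ± 0.17 and -0.40 ± 0.14. The fall of Cubn was not called without day 8 replicate 2 (-0.19) or day 16 replicate 2 (-0.24), nor with RLE size factors (-0.37, adjusted p = 0.0518). The summed level of the endoderm list was 319 and 319 CPM at day 16, against 99.2 and 108 CPM at day 8, and Rhox5 alone was at 0 at day 16. Spink1, a secreted trypsin inhibitor in that list, was at 21.3 and 24.0 CPM at day 16, against 0.396 and 0.539 CPM at day 8 (5.55 ± 0.19). Erythroid genes rose in 5 of 11 and fell in none, summing to 59.6 to 63.0 CPM at day 16, against 18.7 to 19.3 CPM at day 8. The embryonic globin gene Hbb-y was at 12.6 and 12.9 CPM at day 16, against 1.47 and 0.698 CPM at day 8. Cardiac genes rose in 8 of 18 and fell in 3, at 116 to 118 CPM in sum at day 16, against 67.7 to 68.5 CPM at day 8. Without day 8 replicate 2 or day 16 replicate 2, 5 cardiac genes were called higher in place of 8, and without day 16 replicate 2 none was called lower. Kidney and intermediate mesoderm genes rose in 9 of 13 and fell in 4, at 461 to 483 CPM at day 16, against 211 to 232 CPM at day 8. Adipocyte genes rose in 4 of 9 and fell in none, with sums of 79.6 to 89.6 CPM at day 16, against 55.8 to 59.5 CPM at day 8, and Lep was at 0 at day 16.

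Endothelial genes rose in 6 of 17 and fell in 4 (2 without day 16 replicate 1), the falls near the 24.8% of all tested genes. Their sum was 152 to 160 CPM at day 16, against 152 to 158 CPM at day 8, so the days overlap. Within the list Pecam1, the junction protein CD31 that pluripotent cells also carry, fell by -2.52 ± 0.07, and Kdr, a VEGF receptor, rose by 1.53 ± 0.13. Macrophage and leukocyte genes rose in 0 of 10 tested and fell in 4, summing to 20.4 to 20.8 CPM at day 16, against 54.0 to 55.6 CPM at day 8. Of the defining markers, 4 were at 0 at day 16 (Adgre1, Tyrobp, C1qb and C1qc) and 3 at day 8 (C1qa, C1qb and C1qc), and all of these had too few counts at either day to be tested. Skeletal muscle genes rose in 3 of 13 and fell in 3, shares near those of all tested genes, at 21.1 to 21.6 CPM at day 16, against 36.9 to 40.2 CPM at day 8.

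Neuronal genes rose in 3 of 21 tested members (1 without day 8 replicate 2 or day 16 replicate 2) and fell in 12 (median -0.62), with sums of 158 to 178 CPM at day 16, against 317 to 321 CPM at day 8. Stmn2, a microtubule regulator of growing axons, was at 9.68 and 13.8 CPM at day 16, against 64.6 and 58.1 CPM at day 8 (-2.38 ± 0.13). Slc18a3, the vesicular acetylcholine transporter, and Foxn4, a factor of retinal and spinal interneurons, were among the 15 largest falls, by -4.05 ± 0.23 and -4.31 ± 0.23. Neural progenitor genes rose in 5 of 17 and fell in 7, with Olig2, of motor neuron and oligodendrocyte progenitors, down by -3.60 ± 0.29 and Nes, nestin, up by 1.88 ± 0.09. Glia and melanocyte genes rose in 1 of 13 and fell in 4, the falls near the 24.8% of all tested genes. Their sum was 69.1 to 73.5 CPM at day 16, against 101 to 102 CPM at day 8. Epithelial genes rose in 6 of 25, near the 21.1% of all tested genes, and fell in 10. Their sums overlapped, at 1588 to 1610 CPM at day 16, against 1574 to 1666 CPM at day 8. The epithelial adhesion gene Epcam fell by -1.47 ± 0.06, and the simple keratin gene Krt19 rose by 0.97 ± 0.06.

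Pluripotency genes fell in 16 of 19 members of the naive list (median -2.27) and in 22 of 26 of the core and primed list (median -2.09). Pou5f1, the core factor OCT4 (chromosome 17, 35506018 to 35510772), was at 16.1 and 16.7 CPM at day 16, against 166 and 174 CPM at day 8 (-3.37 ± 0.06, adjusted p = 5.82e-14). Nanog was at 15.9 and 17.6 CPM at day 16, against 106 and 92.0 CPM at day 8 (-2.57 ± 0.08), and Sox2 at 22.1 and 25.1 CPM, against 152 and 160 CPM (-2.72 ± 0.07). All were still detected in both day 16 libraries, Pou5f1 with 2041 counts over the pair. Dnmt3l, the cofactor of de novo DNA methylation (chromosome 10, 78041947 to 78063622), was at 10.7 and 11.6 CPM at day 16, against 153 and 166 CPM at day 8 (-3.84 ± 0.07), and the methyltransferase gene Dnmt3b and the hydroxylase gene Tet1 fell by -1.73 ± 0.06 and -1.72 ± 0.08. The naive list's 1 rise was Spp1, also a bone matrix gene. In the core and primed list Lin28b rose by 0.50 ± 0.07, and the streak genes T and Mixl1 rose by 0.90 ± 0.29 and 0.77 ± 0.28. Mixl1 was not called without any 1 of the 4 libraries (0.66 to 0.87) or with library size alone (0.65, adjusted p = 0.0714). Nor was T called without day 8 replicate 1, day 8 replicate 2 or day 16 replicate 1 (0.74 to 0.93). Summed naive levels were 1392 to 1483 CPM at day 16, against 1850 to 1856 CPM at day 8, or 637 to 641 CPM, against 1421 to 1486 CPM, without Spp1, and summed core and primed levels 933 to 961 CPM, against 3320 to 3493 CPM.

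Germline and egg genes fell in 16 of 17 members and rose in none (median -1.68). Zp3, of the egg coat, fell by -4.09 ± 0.37, and Sycp3, of meiotic chromosome axes, fell by -3.05 ± 0.24 to 0.492 and 0.363 CPM at day 16, against 3.54 and 3.57 CPM at day 8. The ES cell noncoding RNA Platr10 fell by -3.78 ± 0.13. The largest fall among the ranked genes was that of Mt3, a metallothionein best known from brain (chromosome 8, 94152607 to 94154146), at 0.541 and 0.347 CPM at day 16, against 9.20 and 10.5 CPM at day 8 (-4.47 ± 0.22, adjusted p = 5.62e-10). Calcoco2, an autophagy receptor, was at 8.19 and 11.1 CPM at day 16, against 151 and 141 CPM at day 8 (-3.91 ± 0.11).

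The Nanog promoter is shown because OCT4 and SOX2 are known to bind a joined element there. The 250 bases before the RefSeq start lie on the plus strand at chr6:122707239-122707488 (GRCm38.p6), with the element in capitals.
Nanog: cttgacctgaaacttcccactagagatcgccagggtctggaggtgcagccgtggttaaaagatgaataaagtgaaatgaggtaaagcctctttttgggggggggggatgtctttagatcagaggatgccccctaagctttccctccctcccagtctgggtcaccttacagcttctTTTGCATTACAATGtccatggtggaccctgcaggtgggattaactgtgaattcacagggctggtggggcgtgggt
The joined SOX-OCT motif, with any base where its SOX and OCT sites join, was searched on both strands; here it reads on the minus strand and starts 75 bases before the start. It was found in 1 of the 14149 tested genes with a window (0.00707%), which is Nanog itself. Only 28 of the 45 pluripotency members had a window, and the strict pattern misses elements with other spellings.

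**Figure D3:**
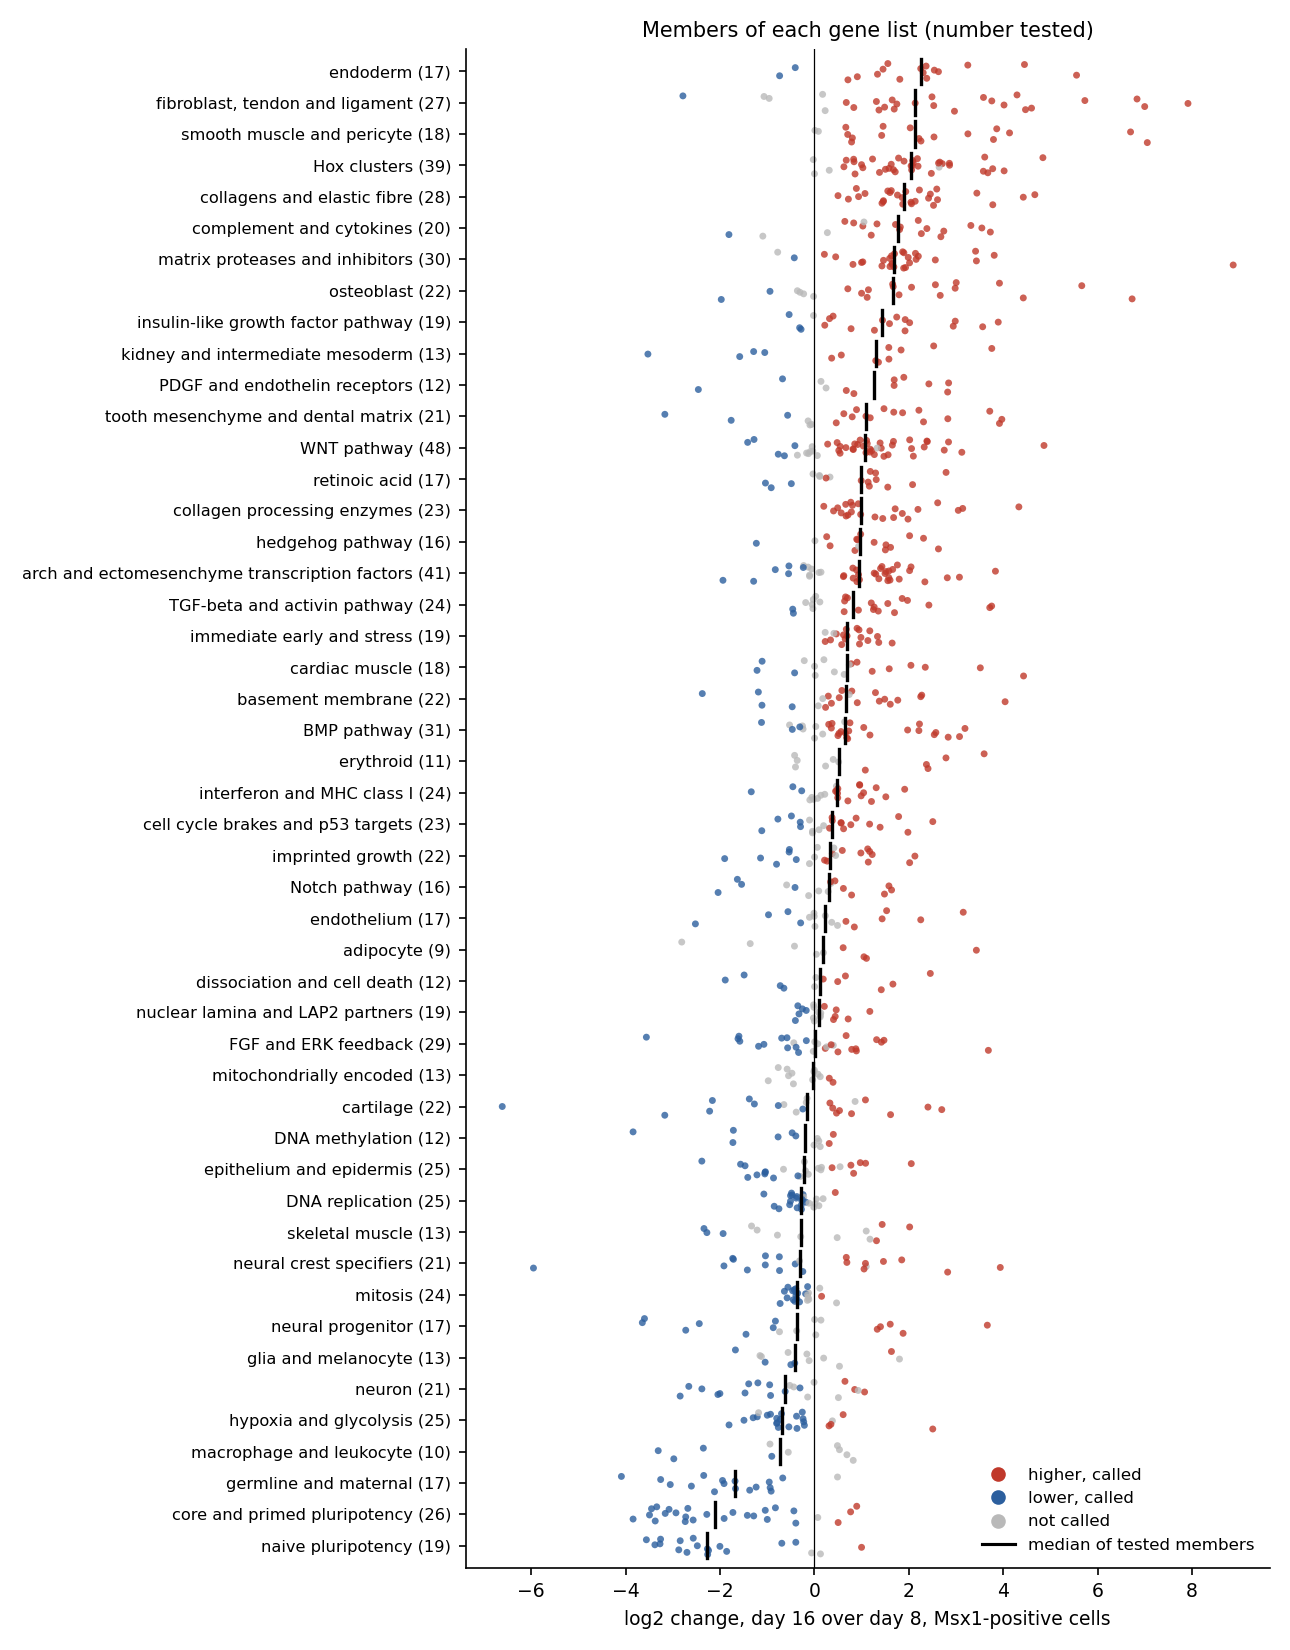
Log2 change, day 16 over day 8, of every tested member of 48 gene lists, ordered by list median (black bar), with the number tested in brackets. Red members rose, blue fell and grey were not called; collagen lists lie wholly to the right and naive pluripotency and germline lists almost wholly to the left, and Mmp10, Tnmd, Dpt, Snorc and Foxd3 had no counts in 1 group, so their places depend on the prior count.

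Hox genes, which give positional identity along the trunk and limbs, rose in 35 of 39 tested members and fell in none (median 2.05). Hoxa9 was at 11.5 and 9.59 CPM at day 16, against 0.707 and 0.601 CPM at day 8 (4.02 ± 0.36), Hoxc8 rose by 3.78 ± 0.29 and Hoxc5 by 3.67 ± 0.37. The 4 members not called were Hoxc12, Hoxc13, Hoxd12 and Hoxd13, while Hoxa13 and Hoxb13 rose by 0.83 ± 0.32 and 0.63 ± 0.19. Cells of the first arch are known to be free of Hox expression, and here the summed level was 291 CPM in each day 16 library, against 94.2 and 102 CPM at day 8. Msx1-negative libraries summed to 62.0 to 64.1 CPM at day 16, against 22.1 to 22.2 CPM at day 8.

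Signalling genes were taken by pathway. BMP ligands, receptors, inhibitors and targets rose in 21 of 31 members and fell in 3 (median 0.64). The antagonist Grem1 was at 56.4 and 59.4 CPM at day 16, against 6.21 and 6.45 CPM at day 8 (3.19 ± 0.13), and the ligand gene Bmp5 rose by 2.84 ± 0.22. The inhibitory Smad7 fell by -0.47 ± 0.09. In the TGF-beta and activin pathway 16 of 24 rose and 2 fell (median 0.82), with the ligand Tgfb3 up by 1.97 ± 0.09 and the matricellular gene Ccn2 up by 2.43 ± 0.06. Both calls for a fall were in activin receptors, Acvr1b (-0.44 ± 0.06) and Acvr2b (-0.46 ± 0.14). Acvr2b was not called without day 8 replicate 2 (-0.30) or day 16 replicate 2 (-0.26).

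WNT genes rose in 35 of 48 members and fell in 5 (median 1.07). The ligand gene Wnt2 was at 13.4 and 15.3 CPM at day 16, against 0.509 and 0.477 CPM at day 8 (4.86 ± 0.22). The secreted antagonists Dkk2 and Sfrp4 rose by 3.12 ± 0.10 and 2.84 ± 0.16, and the target gene Axin2, named after its value was seen, by 1.47. Falls were seen in Wnt8a (-1.41 ± 0.40), Rspo4 (-1.28 ± 0.28) and Rspo1 (-0.76 ± 0.17), and that of Wnt8a was not called without day 16 replicate 1 (-1.01). Of 16 hedgehog genes 13 rose and 1 fell (median 0.96). Gli1, a direct target of the pathway, was at 14.2 and 14.3 CPM at day 16, against 2.59 and 3.10 CPM at day 8 (2.31 ± 0.14), and the coreceptor gene Gas1 rose by 2.63 ± 0.08.

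Of 19 genes of insulin-like growth factor signalling 15 rose and 3 fell (median 1.44). The ligand Igf1 was at 44.7 and 44.8 CPM at day 16, against 3.79 and 3.77 CPM at day 8 (3.57 ± 0.15), and Pappa, the protease that frees it from its carrier proteins, at 57.0 and 53.8 CPM, against 3.68 and 3.76 CPM (3.90 ± 0.12). Igf2r, which clears IGF2, fell by -0.53 ± 0.09. Of 12 PDGF and endothelin genes 8 rose and 2 fell (median 1.26): the ligand Edn1, which patterns the lower jaw, rose by 2.84 ± 0.20 and the receptor gene Ednrb by 2.82 ± 0.24, while the ligand Edn3 fell by -0.67 ± 0.20 and was not called without any 1 of day 8 replicate 1, day 16 replicate 1 or day 16 replicate 2. FGF genes were split, 11 of 29 higher and 12 lower (median 0.01). Fgf7 and Fgf10, mesenchymal ligands for epithelium, rose by 3.69 ± 0.39 and 1.47 ± 0.11, and Fgf4, made by pluripotent cells, fell by -3.56 ± 0.08. Of 17 retinoic acid genes 10 rose and 3 fell (median 0.99), led by Stra6, the retinol uptake receptor (2.79 ± 0.12). Notch genes rose in 7 of 16 tested and fell in 4 (median 0.32), the falls near the 24.8% of all tested genes. Jag1 rose by 1.64 ± 0.11 and its relative Jag2 fell by -1.63 ± 0.10.

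Proliferation genes fell by small amounts. Of 25 DNA replication genes 17 were called lower and 1 higher (median -0.27), and of 24 mitosis genes 16 lower and 1 higher (median -0.36). Mcm2, of the replicative helicase, was at 228 and 207 CPM at day 16, against 373 and 411 CPM at day 8 (-0.85 ± 0.07), and Ccnb1, cyclin B1, fell by -0.63 ± 0.05. No mitosis member fell by 2-fold or more. Foxm1, the mitosis member that rose (0.15 ± 0.06), was not called without any 1 of day 8 replicate 1, day 16 replicate 1 or day 16 replicate 2 (0.10 to 0.17), nor with library size alone (0.04, adjusted p = 0.596), with no filter on low counts (adjusted p = 0.13) or with Msx1-positive libraries alone (adjusted p = 0.0909). Cell cycle brakes and p53 targets rose in 13 of 23 and fell in 5 (median 0.38), the falls near the 24.8% of all tested genes. Cdkn2b, the inhibitor p15, was at 64.3 and 61.1 CPM at day 16, against 17.1 and 19.2 CPM at day 8 (1.78 ± 0.11), Cdkn1a, the inhibitor p21, rose by 0.77, and the death gene Pmaip1 fell by -1.11 ± 0.07.

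Of 25 genes of glycolysis and the hypoxia response, 19 were called lower and 4 higher (median -0.70). Pdk1, which keeps pyruvate out of mitochondria, was at 43.1 and 45.3 CPM at day 16, against 105 and 112 CPM at day 8 (-1.30 ± 0.06), and Pfkp, a glycolytic kinase, fell by -1.49 ± 0.06, while Adm and Vegfa rose by 2.51 ± 0.19 and 0.61 ± 0.06. Of 13 mitochondrially encoded genes 2 rose, mt-Cytb (0.40 ± 0.07) and mt-Nd2 (0.32 ± 0.08). The rise of mt-Nd2 was not called without day 16 replicate 2 (0.14) or with library size alone (0.20, adjusted p = 0.0664). Mitochondrial counts were 1.6% and 1.83% of the day 16 libraries, against 1.81% and 1.75% of the day 8 libraries. Immediate early and stress genes, which dissociation and sorting can induce, rose in 17 of 19 tested and fell in none (median 0.69). Fos was at 281 and 306 CPM at day 16, against 118 and 114 CPM at day 8 (1.34 ± 0.06), and the summed list at 2703 to 2812 CPM, against 1401 to 1456 CPM. The part of this shift in other results was not tested.

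Secreted proteases and inhibitors of the matrix rose in 28 of 30 and fell in 1 (median 1.69), the fall being that of the urokinase receptor Plaur (-0.43 ± 0.09). Plau, urokinase itself, was at 40.1 and 38.4 CPM at day 16, against 4.20 and 3.22 CPM at day 8 (3.42 ± 0.13), and Mmp13, a collagenase of bone and cartilage, rose by 3.43 ± 0.40. Mmp10 had 107 counts at day 16 and 0 at day 8, at least 52.8-fold higher against the floor. Basement membrane genes rose in 15 of 22 tested and fell in 4 (median 0.66). Col4a5 and Col15a1 rose by 2.28 ± 0.08 and 2.25 ± 0.08, while the epithelial laminin chain genes Lama3 and Lamb3 fell by -2.37 ± 0.09 and -1.19 ± 0.19. Complement and cytokine genes rose in 16 of 20 tested and fell in 1 (median 1.76). Ptx3, a soluble pattern receptor, was at 30.6 and 32.8 CPM at day 16, against 2.82 and 2.62 CPM at day 8, and Il6 rose by 3.73 ± 0.62 at 0.820 and 1.26 CPM at day 16, against 0.0849 and 0.0707 CPM at day 8. Of 24 interferon and MHC class I genes 14 rose and 3 fell (median 0.48), Ifi27 rising by 1.91 ± 0.10 and H2-K1 falling by -0.46 ± 0.06. Imprinted growth genes rose in 11 of 22 tested and fell in 6 (median 0.33), the falls near the 24.8% of all tested genes. H19 was at 2268 and 2218 CPM at day 16, against 518 and 507 CPM at day 8 (2.13 ± 0.06), and its neighbour Igf2 rose by 2.02 ± 0.15. Of 12 cell death genes 6 rose and 4 fell (median 0.11), with the receptor gene Fas up by 2.46 ± 0.15 and the BH3-only gene Hrk down by -1.89 ± 0.18.

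The Msx1-negative cells of the same days show which changes the Msx1-positive cells had to a different degree. In Msx1-negative cells 37.6% of the tested genes were called between the days, 19.7% higher and 17.8% lower. The time change differed between the fractions for 6384 genes (28.6%), more positive in Msx1-positive cells for 2294 (10.3%) and more negative for 4090 (18.3%). Scaling by library size alone gave 1088 and 5912, with a median difference of -0.28 in place of -0.10. In both fractions 4834 genes were called in the same direction and 740 in opposite directions, of which 298 rose in Msx1-positive and fell in Msx1-negative cells. Of the 263 genes named by the rule, 170 differed between the fractions. The rule itself took most genes for large called changes or differences, so this count cannot be set against the 28.6%. Acta2 was not called for a difference (-0.12, adjusted p = 0.743), nor were Col12a1 (-0.10, adjusted p = 0.794) and Lox (0.34, adjusted p = 0.402).

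Pluripotency genes had the more negative change in Msx1-positive cells: 17 of 19 naive and 18 of 26 core and primed genes differed in that direction, and 2 of each list in the other. Pou5f1 fell by -3.37 in Msx1-positive cells and by -0.70 in Msx1-negative cells, where it was at 335 and 344 CPM at day 16, against 553 and 547 CPM at day 8. Nanog was not called in Msx1-negative cells (0.04, adjusted p = 0.746). Clec11a, the bone growth factor osteolectin (chromosome 7, 44302687 to 44306902), rose by 3.90 ± 0.19 in Msx1-positive cells, at 16.1 and 17.2 CPM at day 16, against 1.05 and 1.18 CPM at day 8, and fell by -0.79 in Msx1-negative cells (difference 4.68, adjusted p = 2.07e-08). Sfrp4, Insc, Gabra3 and Adam33 likewise rose in Msx1-positive and fell in Msx1-negative cells. Osr1, of limb and palate mesenchyme, rose by 1.30 ± 0.13 in Msx1-positive cells, at 21.8 and 23.3 CPM at day 16, against 9.06 and 9.24 CPM at day 8. In Msx1-negative cells it had 160 counts at day 16 and 0 at day 8.

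**Figure D4:**
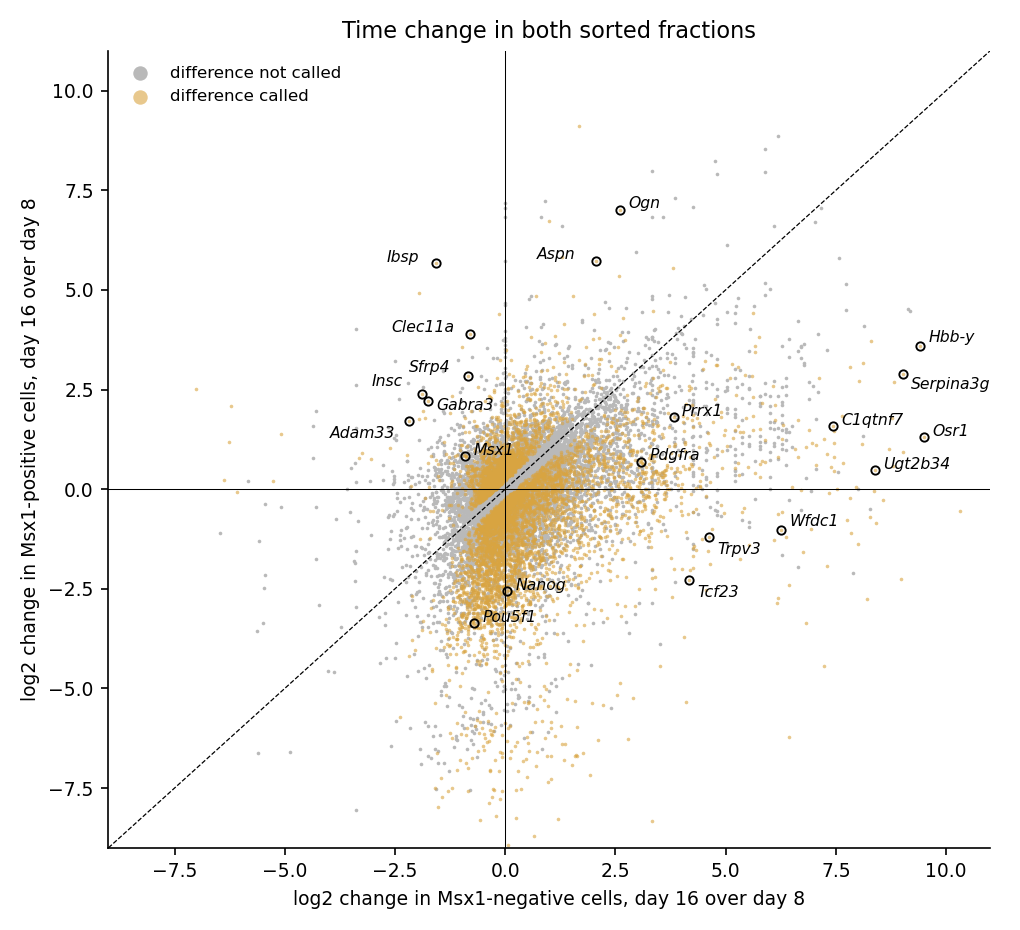
Log2 change, day 16 over day 8, in Msx1-positive cells (vertical axis) against that in Msx1-negative cells (horizontal axis) for the 22294 tested genes; the dashed line marks equal changes and ochre points are genes called for a difference. Ibsp, Clec11a and Sfrp4 lie above the line and Pou5f1 and Nanog below it, and Osr1, Serpina3g and C1qtnf7, at the far right, had no counts in Msx1-negative cells at day 8, so their places there depend on the prior count.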

How the data were processed

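The authors deposited raw read counts per gene symbol, whole numbers in 1 column per library. Build GRCm38, HISAT2 2.1.0, fastp 0.20.0 and DESeq2 1.18.1 are listed in the submitters' processing notes. Which program and annotation gave the counts is not given in the sources used here. Per the labels' protocols, total RNA was made into NEBNext Ultra libraries, a kit that does not mark strand. Columns were matched to samples by name. GENCODE vM21 gave coordinates and matched 53263 of 54114 symbols by name; 17435 symbols had no count in any library. The gene lists and members were chosen with earlier results of these data known.

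The 8 sorted libraries (day 16 and day 8, Msx1-positive and Msx1-negative, 2 each) were fitted together in R 4.3.3 with edgeR 4.0.16: filterByExpr by group, TMM, robust glmQLFit and two-sided glmQLFTest, with Benjamini-Hochberg adjustment over the 22294 genes tested and a threshold of 0.05. The SE is the absolute log2 change over the square root of F and can be too small at low counts. The difference of time changes is an interaction contrast of the same fit. Folds against 0 counts use a floor of 3 counts over the group and cover counting error only, since reads counted with no molecular identifier need not be separate molecules. Placing such members at their bound changed the median of 0 lists. Of 25 replication-dependent histone symbols sought, 1 was found in the table, so that list was set aside.

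Genes were named by rule, starting with 11 fixed genes. The 15 largest rises and falls were taken among called genes with days that do not overlap, at least 5 CPM in the higher group and no clone name. From each list came the 3 largest called rises and falls at 1 CPM or more. The 8 largest called differences each way had the same limits as the 15, with 5 CPM in any sorted group. Other members, such as Postn, Col1a2, Sp7 and Axin2, and the chromosomal neighbourhoods were chosen after their values were seen. Alternatives were RLE or library-size scaling, other filters, DESeq2 1.42.0, ES libraries in the fit, Msx1-positive libraries alone, no robust estimation, a replicate block, and each library left out; thinning the deepest library was added after seeing the data. Counts were also simulated for 21388 genes, of which 21192 were left unchanged at a mean common to all groups. The test recovered 88.0% of 50 genes raised by log2 2 and 65.3% of 49 raised by 1. It called 13 of the unchanged genes. In the real data 45.9% of genes were called, so these shares need not carry over. Promoter windows are RefSeq's for GRCm38.p6. Some genes that the rule names are not reported here.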

Additional observations from a re-analysis of the deposited data

Results flagged for a closer look

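Each result here was set apart because the change between day 16 and day 8 differed between Msx1-positive and Msx1-negative cells by the interaction test of edgeR's quasi-likelihood fit (adjusted p below 0.05). Values are the log2 time change in Msx1-positive minus that in Msx1-negative cells, for the fixed genes and the 8 genes at each end of the ranking. Ranked were called genes with a mean of at least 5 CPM in any sorted group, Msx1-positive days that do not overlap and no clone name. Among the fixed genes the difference was 1.73 for Msx1, which rose in Msx1-positive cells and fell in Msx1-negative cells, 0.69 for Twist1 and 0.26 for Tmpo. It was -0.97 for Dlx2, -2.02 for Prrx1, -2.41 for Pdgfra and -1.58 for Sox9. The pluripotency factors had -2.67 (Pou5f1), -2.60 (Nanog) and -2.03 (Sox2). Runx2 was not called (-0.56, adjusted p = 0.556).

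Among the ranked genes the most positive differences were 7.22 for Ibsp, 4.68 for Clec11a, 4.39 for Ogn and 4.28 for Insc. Next came 3.96 for Gabra3, 3.89 for Adam33, 3.70 for Sfrp4 and 3.68 for Aspn. Omd, under 5 CPM and so not ranked, had a called difference of 5.75 (adjusted p = 0.0389). Ibsp had 2 counts at day 16 and 6 at day 8 in Msx1-negative cells, and its difference was not called without day 8 Msx1-negative replicate 1 (2.32, adjusted p = 0.927). Without day 16 Msx1-negative replicate 1 it was 10.59. The difference of Ogn was likewise not called without day 8 Msx1-negative replicate 1 (3.53).

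Among the ranked genes the most negative differences were -8.19 for Osr1, -7.91 for Ugt2b34, -7.28 for Wfdc1 and -6.46 for Tcf23. Next came -6.14 for Serpina3g, -5.85 for C1qtnf7, -5.83 for Trpv3 and -5.82 for Hbb-y. Osr1, Serpina3g and C1qtnf7 had 0 counts in Msx1-negative cells at day 8, and Hbb-y had 1, so the size of these 4 fitted values depends on the prior count. Ugt2b34, a glucuronosyltransferase, was at 16.4 and 14.1 CPM in Msx1-negative cells at day 16, with 5 counts there at day 8, and was not called in Msx1-positive cells (0.47, adjusted p = 0.437). Trpv3, an ion channel of skin, was at 21.2 and 19.7 CPM in Msx1-negative cells at day 16, against 1.10 and 0.543 CPM at day 8, while in Msx1-positive cells it was at 0.377 and 0.221 CPM, against 0.764 and 0.636 CPM. Fitted differences that moved widely with 1 library left out were those of Ugt2b34 (-12.59 without day 8 Msx1-negative replicate 2), Hbb-y (-8.36 without day 8 Msx1-negative replicate 1) and Tcf23 (-8.74 without day 16 Msx1-positive replicate 1). The cause of these differences was not tested.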

How the results depend on the processing

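No called result reversed under any alternative; Tmpo, not called, was at -0.03 with library size alone. Without TMM, scaling by library size alone gave 1088 genes with a more positive time change in Msx1-positive than in Msx1-negative cells in place of 2294, and shifted the calls of day 16 against day 8 to 3717 higher and 6999 lower, 34.7% higher in place of 46.0%. RLE size factors gave 49.7%. Leaving out 1 of the 4 Msx1-positive libraries gave 3893 to 4213 higher and 4702 to 4999 lower genes, and 1363 to 1472 and 2223 to 2351 by 2-fold. Leaving out any of the 8 libraries gave 1824 to 2297 more positive and 3427 to 3849 more negative differences. The replicate block gave 4605 higher and 5381 lower genes. Deviations of same-numbered libraries correlated at -0.05 between day 16 and day 8 Msx1-positive cells. Between the fractions they correlated at -0.02 at day 16 and 0.01 at day 8. The labels do not say whether equal numbers mark a shared culture, and these correlations cannot settle it. DESeq2 called 4869 and 4956. Of the 261 called genes named by the rule 236 kept their call and direction in every alternative run and 25 lost the call in at least 1, and the differences of Ogn and Ibsp lost theirs. Of the list counts 56 moved by more than 1.5 times, all but those of cardiac genes from counts of 5 or fewer members. The deepest day 8 library, with 107770730 counts, was thinned to the depth of its replicate as an alternative chosen after seeing the data, which gave 4725 and 5452. At this depth genes with few counts in 1 group carry wide errors, and folds against 0 counts are lower bounds.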
